A study of Mus musculus with 12 samples.

Results

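The genes described here are 8 immediate-early genes, of 55421 gene identifiers counted in the series: Egr1, Egr2, Egr3, Nr4a1, Ier2, Ier3, Ier5 and Srf. They were chosen by name, and each symbol was matched to its Ensembl identifier through the GENCODE vM21 annotation. Messenger RNA was measured in 2 female mouse cell lines, each untreated and after 6 h with 5 nM rebastinib, with 3 libraries in each of the 4 groups. Rebastinib inhibits several kinases, among them TIE2, through which cells sense angiopoietins. ID8 is an epithelial cancer line from ovarian surface epithelium, labelled C57BL6J and wildtype. PMJ2R is a macrophage line from peritoneal lavage, and its C57BL6J cells carry the v-raf and v-myc oncogenes in control and treated libraries alike. Each cell type is thus represented by 1 line. The lines grew in different media, and trypsin was used to detach ID8 cells before pelleting but is not named for PMJ2R, so line, medium and detachment cannot be told apart where the lines are compared. No vehicle is named for the untreated cells.

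Immediate-early genes are transcribed within minutes of a signal, without new protein synthesis. Growth factors, adhesion and stress reach many of them through the RAS, RAF, MEK and ERK kinases, which phosphorylate ELK proteins bound next to serum response factor (SRF) at a DNA element called the CArG box. EGR proteins are zinc finger transcription factors, NR4A1 (NUR77) is an orphan nuclear receptor, and the IER proteins, named for their rapid induction, act in cell growth, cell death and stress signalling. In macrophages, inflammatory signals induce many of the same genes.

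Egr1 has the identifier ENSMUSG00000038418. The annotation (GRCm38) places Egr2 (ENSMUSG00000037868) at chr10:67535475-67542188 and Egr3 (ENSMUSG00000033730) at chr14:70077203-70082614. Nr4a1 (ENSMUSG00000023034) lies at chr15:101254269-101274795. The IER genes are short: Ier2 (ENSMUSG00000053560) at chr8:84661331-84662852 and Ier5 (ENSMUSG00000056708) at chr1:155096361-155099636 have 1 exon each, and Ier3 (ENSMUSG00000003541) at chr17:35821684-35822923 has 2. Srf (ENSMUSG00000015605) lies at chr17:46548329-46556175. No exon of these 8 genes overlaps an exon of another annotated gene.

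RefSeq promoter windows were matched by symbol for 5 of the 8 genes, Egr2, Nr4a1, Ier3, Ier5 and Srf. The 250 bases before the start site are shown for 4 of them, on GRCm38.p6 and in the direction of the gene. They are shown because these genes moved differently with rebastinib in PMJ2R: Srf, Egr2 and Ier3 rose and Nr4a1 fell. Capitals mark matches, on either strand, to the CArG box, the cAMP response site CGTCA, the ETS core CCGGAA and the EGR site GCGNGGGCG. Srf lies on the minus strand at chr17:46556163-46556412, Egr2 on the plus strand at chr10:67537619-67537868, Nr4a1 on the plus strand at chr15:101266596-101266845, and Ier3 on the plus strand at chr17:35821463-35821712.
Srf: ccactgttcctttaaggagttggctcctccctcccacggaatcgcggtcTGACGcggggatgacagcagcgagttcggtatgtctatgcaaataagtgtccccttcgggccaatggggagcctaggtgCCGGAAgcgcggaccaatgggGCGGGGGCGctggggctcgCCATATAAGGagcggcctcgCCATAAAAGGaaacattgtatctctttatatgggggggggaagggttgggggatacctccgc
Egr2: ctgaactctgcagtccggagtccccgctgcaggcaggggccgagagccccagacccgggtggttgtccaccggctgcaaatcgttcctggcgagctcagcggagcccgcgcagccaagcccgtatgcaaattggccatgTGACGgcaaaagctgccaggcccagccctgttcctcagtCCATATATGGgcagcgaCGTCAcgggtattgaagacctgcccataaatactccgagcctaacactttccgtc
Nr4a1: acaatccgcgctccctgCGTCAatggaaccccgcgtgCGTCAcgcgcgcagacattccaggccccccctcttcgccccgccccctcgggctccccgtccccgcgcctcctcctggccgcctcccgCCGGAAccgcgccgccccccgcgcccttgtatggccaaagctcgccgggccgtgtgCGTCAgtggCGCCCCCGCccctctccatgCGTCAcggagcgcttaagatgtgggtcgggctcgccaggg
Ier3: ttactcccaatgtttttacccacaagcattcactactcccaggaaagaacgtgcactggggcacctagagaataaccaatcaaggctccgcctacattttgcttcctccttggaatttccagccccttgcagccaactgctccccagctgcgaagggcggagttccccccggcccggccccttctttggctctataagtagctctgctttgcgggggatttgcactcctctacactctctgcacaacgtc

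Srf, whose product binds CArG boxes, has 2 of them, starting 82 and 62 bases before the transcription start, and Egr2 has 1, starting at 72 bases. A CArG box was present in 1.47% of 32851 mouse promoter windows of the same length. Nr4a1 has 4 CGTCA sites, where Egr2 has 2 and Srf has 1, and 17.8% of all windows hold at least 1. The ETS core, the letters ELK proteins recognise, is present in Srf and Nr4a1 and in 12% of all windows. The EGR site is also present in Srf and Nr4a1 and in 4.7% of windows. No window of these 5 genes holds the full cAMP response element TGACGTCA, which contains CGTCA (1.55% of windows), or the NR4A element AAAGGTCA (1.34%), and the windows of Ier3 and Ier5 hold none of the motifs searched. These are matches of letters in a short window, not measured binding. For Egr2, which has 5 RefSeq windows, the window nearest to the main annotated start was used.

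Library totals were 22102800 to 23486355 counts in ID8 control, 19057954 to 24971090 in ID8 rebastinib, 23200008 to 27070556 in PMJ2R control and 19025504 to 20242502 in PMJ2R rebastinib. Genes overlapping ribosomal RNA, mitochondrial genes and ribosomal protein genes took 7.71% to 8.61% of counts in ID8 control libraries and 14.5% to 16.7% with rebastinib. In PMJ2R they took 8.89% to 9.28% and 19% to 19.2%. The TMM scaling factors were 1.14 to 1.2 in control libraries and 0.823 to 0.916 in rebastinib libraries. Values below are CPM, counts scaled to library size, with these factors. The marker levels of this paragraph are CPM of library totals, without them. All 6 epithelial and mesothelial markers (Krt8, Krt18, Krt19, Wt1, Msln and Upk3b) were above 1 CPM in ID8 and 0 of 6 in PMJ2R. All 8 macrophage markers were above 1 CPM in PMJ2R and 2 of 8 in ID8, where Adgre1, Spi1, Itgam, Ctss and Lyz2 had no count. The summed level of the 8 macrophage markers was 11.6 to 12.4 CPM in ID8 control and 13.9 to 17.6 CPM in ID8 rebastinib. In PMJ2R it was 1915 to 2050 CPM in control and 1827 to 1845 CPM with rebastinib. Which PMJ2R group is higher depends on the scaling. In bulk libraries, fewer expressing cells and less RNA per cell cannot be told apart.

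Most genes of either line passed the test for rebastinib, so the counts of immediate-early genes are read against a high background. In ID8, 7 of the 8 genes passed the expression filter, and 6 were called at an adjusted p under 0.05, with 4 lower (Egr1, Egr3, Nr4a1 and Ier2) and 2 higher (Ier3 and Ier5). Of all 14829 genes tested there, 80.4% were called, 38.4% higher and 42.0% lower. In PMJ2R, 7 passed the filter and 6 were called, with 5 higher (Egr2, Ier2, Ier3, Ier5 and Srf) and 1 lower (Nr4a1), where 83.7% of 14010 genes were called, 40.1% higher and 43.6% lower. These shares lie near the background, so size and direction carry the description below. Egr3 in ID8 and Egr2 in PMJ2R passed the filter through 1 group only, so the counts of called genes are descriptions. The median log2 fold change of the tested genes of the group was -0.56 in ID8 and 0.77 in PMJ2R, beside -0.07 and -0.05 over all tested genes.

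**Figure D1:**
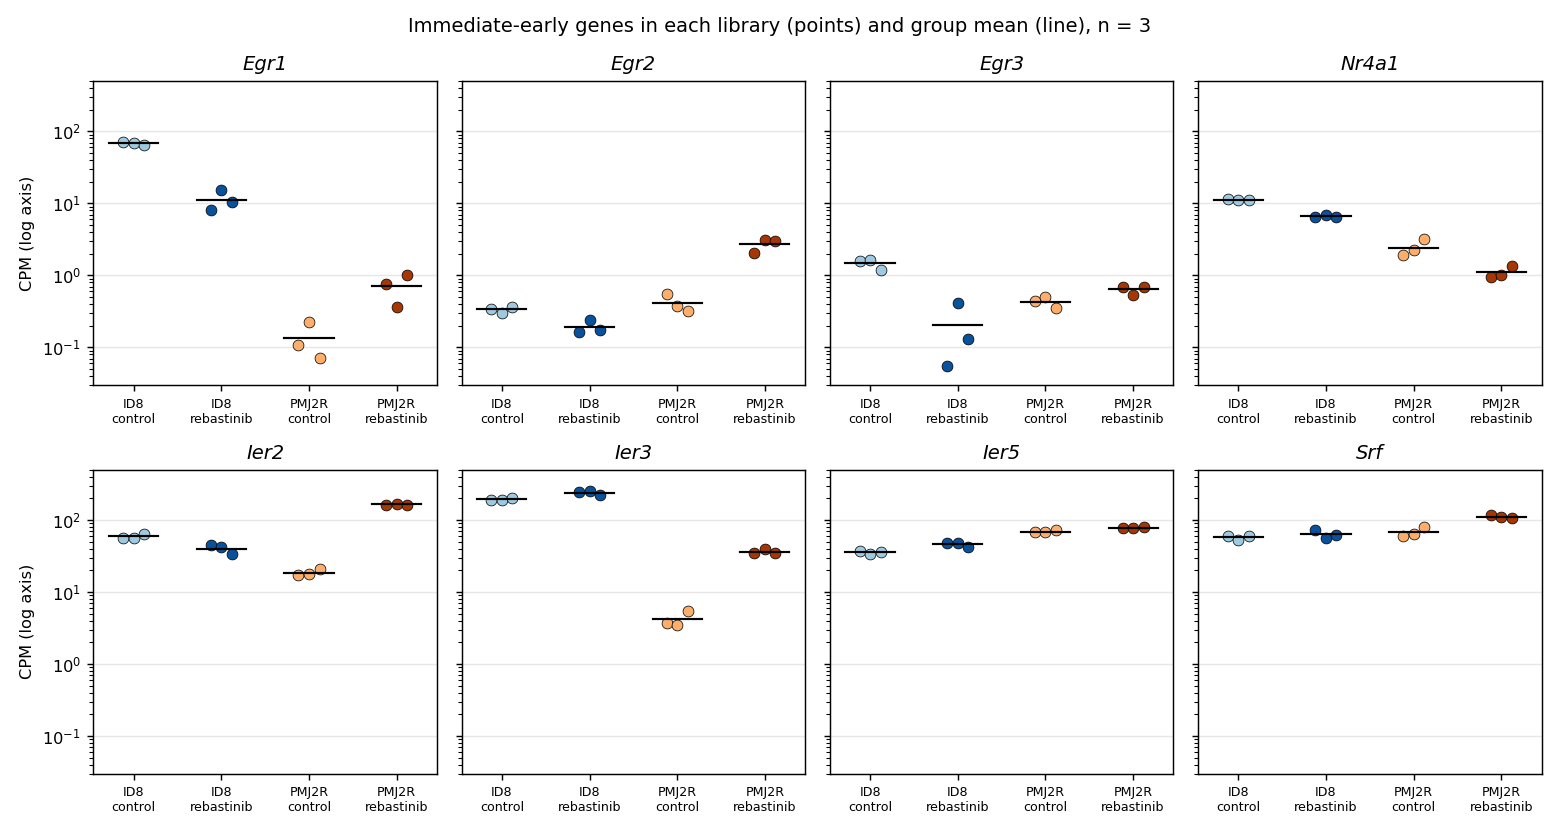
Each panel shows 1 gene, with CPM (TMM factors) on a log axis, 1 point per library and a line at the group mean of 3 libraries. Egr1 stands at 67.9 CPM in ID8 control and near the floor in PMJ2R, and Ier2 and Ier3 are higher with rebastinib in PMJ2R, with no overlap between its groups.

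Egr1, the EGR gene most often used as a readout of ERK signalling, was abundant in ID8 only. Its counts in the ID8 control libraries were 1866, 1799 and 1777, and those with rebastinib were 148, 253 and 241. All treated libraries were far below all controls. The mean fell from 67.9 ± 3.07 to 11.3 ± 3.56 CPM (SD, n = 3), a log2 fold change of -2.59 (SE 0.148, adjusted p = 1.33e-09 by edgeR's quasi-likelihood test). Only 5.59% of tested ID8 genes had a lower fold change than Egr1.

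In PMJ2R, Egr1 was almost undetected. The control libraries held 3, 7 and 2 counts and the rebastinib libraries 12, 6 and 16, which is 0.134 ± 0.0787 and 0.714 ± 0.332 CPM (SD, n = 3). The groups overlap in counts and not in CPM, and Egr1 did not pass the filter of the PMJ2R comparison, so no test of the response within PMJ2R is given. Counts of Egr1 per count of Srf in PMJ2R were 8.65e-04 to 0.00347 in control and 0.00322 to 0.00947 with rebastinib, which overlap (exact two-sided permutation p = 0.2). In the fit over all 12 libraries, whose filter Egr1 passed through its ID8 counts, the response in PMJ2R minus that in ID8 was 4.92 on the log2 scale. It is given as a description, without its p, since the PMJ2R side is near the floor.

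Egr2, an EGR gene with roles in myeloid cells and in myelin formation, moved in the macrophage line. Counts in PMJ2R were 15, 12 and 9 in control and 32, 51 and 47 with rebastinib. Every treated library was above every control library. The mean rose from 0.414 ± 0.119 to 2.70 ± 0.575 CPM (SD, n = 3), with a log2 fold change of 2.76 (SE 0.285 by edgeR). Egr2 passed the filter of the PMJ2R comparison through its treated libraries, so this value is a description, given without a p. ID8 libraries held 9, 8 and 10 counts in control and 3, 4 and 4 with rebastinib, too few to pass the filter there. The response in PMJ2R minus that in ID8 was 3.49 in the fit over 12 libraries. Egr2 passed that filter through its PMJ2R counts and was not tested at a mean of 5 CPM, so this value too is a description.

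Egr3, an EGR gene known for roles in lymphocytes and muscle spindles, was low in all 4 groups. In ID8 it had 42, 43 and 33 counts in control and 1, 7 and 3 with rebastinib. The groups did not overlap, and the mean fell from 1.47 ± 0.236 to 0.202 ± 0.193 CPM (SD, n = 3). The log2 fold change was -2.90 (SE 0.448 by edgeR), and it was -3.83 without ID8 rebastinib replicate 2, the treated library with the most Egr3 counts. Egr3 passed the ID8 filter through its control libraries, so both values are descriptions, given without a p. In PMJ2R, Egr3 had 12, 16 and 10 counts in control and 11, 9 and 11 with rebastinib. Its PMJ2R value of 0.63 (SE 0.359, adjusted p = 0.114) did not pass the threshold, and it was 1.08 (adjusted p = 0.0113) after trends with gene length and GC content were removed. Between the lines the Egr3 response differed by 3.47 (SE 0.604), or 4.40 without the same ID8 library. The treated ID8 libraries held 7 counts or fewer, so this difference too is a description.

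The corepressors NAB1 and NAB2 bind EGR proteins, and Nab2 is a known EGR1 target. Nab2 had 3154, 3071 and 3472 counts in ID8 control and 269, 185 and 328 with rebastinib, a fall with no overlap. Its log2 fold change in ID8 was -3.15 (SE 0.0996, adjusted p = 6.85e-12 by edgeR). In PMJ2R, Nab2 had 346, 419 and 457 counts in control and 79, 67 and 77 with rebastinib, a log2 fold change of -1.53 (SE 0.127, adjusted p = 2.95e-09). Nab2 thus fell in both lines, less in PMJ2R (difference 1.57, SE 0.175, adjusted p = 6.50e-08), and there it fell while Egr2 rose. Exons of Nab2 overlap Stat6, Nemp1 and Gm16229 on the other strand over 1241 bases, and the strand setting of the counting is not given in the sources used here, so its reads and theirs cannot be told apart. Nab1 fell in PMJ2R, from 195 to 123 CPM (log2 fold change -0.60, SE 0.0474, adjusted p = 1.22e-09). In ID8, Nab1 gave 0.06 (adjusted p = 0.475) with TMM scaling and -0.38 (adjusted p = 8.37e-04) with library totals. Counts of Nab2 per count of Nab1, a ratio that needs no scaling, went from 0.569 ± 0.0364 to 0.0615 ± 0.0115 in ID8 and from 0.0713 ± 0.00616 to 0.0377 ± 0.00389 in PMJ2R (SD, n = 3). For each such ratio of 3 against 3 libraries an exact two-sided permutation test cannot go below p = 0.1. Of the other EGR gene, Egr4, 2 counts were found in 1 ID8 control library and none elsewhere.

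Nr4a1 was the member lowered in both lines. In ID8 its counts were 303, 297 and 302 in control and 117, 114 and 148 with rebastinib. In PMJ2R they were 52, 71 and 90 in control and 15, 17 and 21 with rebastinib. The treated libraries lay below the controls in each line, without overlap. ID8 cells went from 11.2 ± 0.254 to 6.60 ± 0.213 CPM (SD, n = 3), a log2 fold change of -0.76 (SE 0.111, adjusted p = 1.72e-05 by edgeR). PMJ2R cells went from 2.43 ± 0.651 to 1.10 ± 0.205 CPM, a log2 fold change of -1.08 (SE 0.254, adjusted p = 8.05e-04). The PMJ2R value was -0.54 (adjusted p = 0.0507) after trends with gene length and GC content were removed, and so lost its call. PMJ2R minus ID8 gave -0.37 (SE 0.272, adjusted p = 0.274), so the test did not separate the lines.

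Its relative Nr4a2 (NURR1) moved the other way in both lines. Nr4a2 had 99, 102 and 91 counts in ID8 control and 127, 108 and 176 with rebastinib, and its log2 fold change was 0.97 (SE 0.143, adjusted p = 2.05e-05 by edgeR). In PMJ2R it had 99, 105 and 146 counts in control and 196, 241 and 200 with rebastinib, a log2 fold change of 1.79 (SE 0.139, adjusted p = 1.10e-09). The rise was larger in PMJ2R (difference 0.76, SE 0.213, adjusted p = 0.00433). Counts of Nr4a2 per count of Nr4a1 went from 0.324 ± 0.0212 to 1.08 ± 0.122 in ID8 and from 1.67 ± 0.214 to 12.3 ± 2.45 in PMJ2R (SD, n = 3, exact permutation p = 0.1 each). In treated PMJ2R libraries this ratio ran from 9.52 to 14.2, so Nr4a2 was by far the more counted of the pair there. The remaining relative, Nr4a3, had 13, 2, 8 and 6 counts in all over ID8 control, ID8 rebastinib, PMJ2R control and PMJ2R rebastinib, and was not tested.

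**Figure D2:**
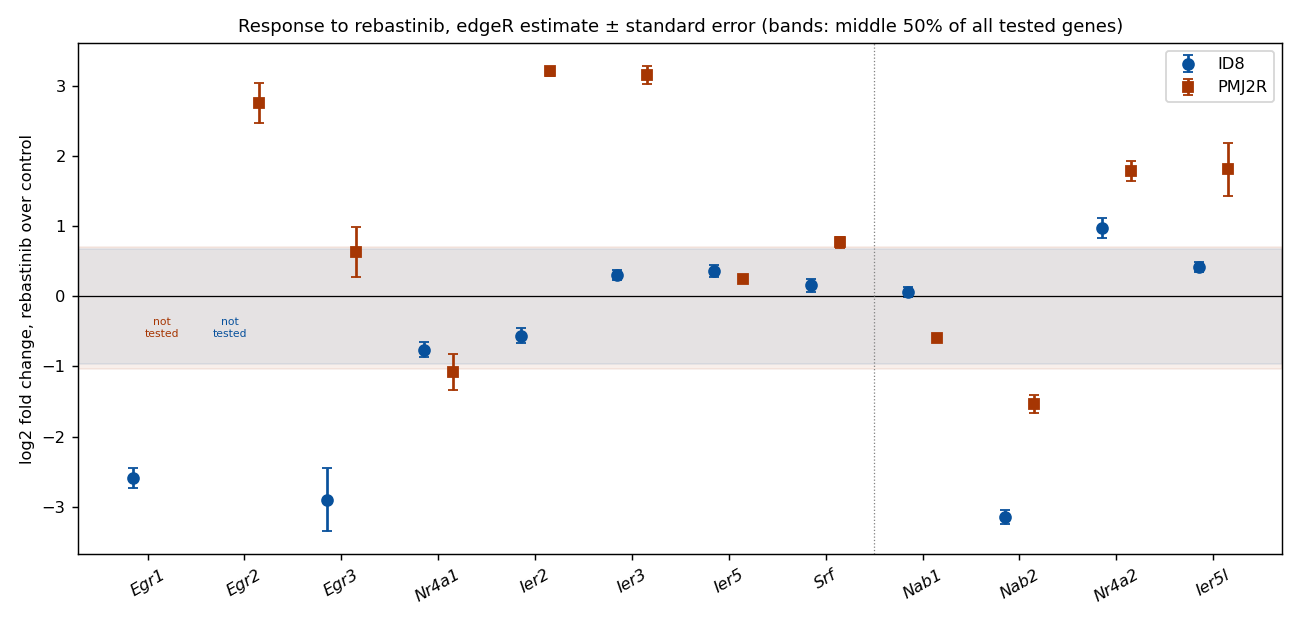
The log2 fold change of rebastinib over control is plotted for the 8 genes and, right of the dotted line, for 4 relatives or partners, in ID8 (circles) and PMJ2R (squares), with standard errors. The bands hold the middle 50% of all tested genes. Egr1 and Egr3 in ID8 lie below the bands at -2.59 and -2.90, and Egr2, Ier2 and Ier3 in PMJ2R lie above them.

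Ier2, which encodes a short-lived nuclear protein, moved in opposite directions in the lines. Its counts in ID8 were 1486, 1502 and 1781 in control and 810, 695 and 771 with rebastinib. PMJ2R held 466, 555 and 603 counts in control and 2574, 2777 and 2560 with rebastinib. No treated library overlapped a control library in either line. In ID8, Ier2 fell from 59.4 ± 4.79 to 40.1 ± 5.75 CPM (SD, n = 3), a log2 fold change of -0.56 (SE 0.102, adjusted p = 1.37e-04 by edgeR). In PMJ2R it rose from 18.6 ± 2.25 to 164 ± 2.08 CPM, a log2 fold change of 3.21 (SE 0.0655, adjusted p = 4.45e-17). The difference of response was 3.72 (SE 0.132, adjusted p = 2.27e-16), and it ranged from 3.60 to 3.91 over the alternatives run. Ier2 per Srf count went from 0.272 ± 0.00945 to 1.47 ± 0.0681 in PMJ2R and from 1.03 ± 0.0793 to 0.628 ± 0.0961 in ID8 (exact permutation p = 0.1 each).

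Ier3 (IEX-1) acts in cell survival and death and is a known NF-kB and p53 target. It had 102, 109 and 158 counts in PMJ2R control and 544, 661 and 540 with rebastinib. All treated libraries lay above all controls. The mean rose from 4.23 ± 1.14 to 36.2 ± 3.02 CPM (SD, n = 3), with a log2 fold change of 3.16 (SE 0.126, adjusted p = 2.71e-13 by edgeR). In ID8, where Ier3 was already abundant, counts were 5048, 4976 and 5611 in control and 4374, 4285 and 5133 with rebastinib, or 195 ± 8.63 and 241 ± 16.5 CPM. The raw counts overlap, and the direction in ID8 depends on scaling. It was 0.31 (SE 0.0714, adjusted p = 9.75e-04) with TMM, -0.12 (adjusted p = 0.114) with library totals, and 0.01 (adjusted p = 0.946) with totals that leave out ribosomal and mitochondrial genes. The difference of response for Ier3 was 2.79 (SE 0.146, adjusted p = 2.73e-13), and it ranged from 2.65 to 3.01 over the alternatives run.

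Ier5, a regulator of the heat shock factor HSF1, changed least among the IER genes in PMJ2R. Counts in ID8 were 991, 908 and 1003 in control and 866, 800 and 976 with rebastinib. In PMJ2R they were 1855, 2153 and 2046 in control and 1231, 1292 and 1255 with rebastinib. After TMM scaling the treated libraries lay above the controls in both lines, at 46.2 ± 3.08 against 36.2 ± 1.71 CPM in ID8 and 78.6 ± 1.17 against 69.1 ± 2.25 CPM in PMJ2R (SD, n = 3). The log2 fold changes were 0.36 (SE 0.0806, adjusted p = 9.24e-04) in ID8 and 0.25 (SE 0.0499, adjusted p = 1.93e-04 by edgeR) in PMJ2R. Both signs turn with library totals, to -0.08 (adjusted p = 0.377) and -0.31 (adjusted p = 1.50e-05), so Ier5 has no direction that holds over the scalings. The difference of response for Ier5 was -0.17 (SE 0.0955, adjusted p = 0.148) and was called without ID8 rebastinib replicate 3 (-0.22, adjusted p = 0.0421) and with library totals (-0.23, adjusted p = 0.0353). Within PMJ2R libraries, Ier5 per Srf count went from 1.02 ± 0.120 to 0.701 ± 0.0385, and in ID8 from 0.628 ± 0.0196 to 0.728 ± 0.103 (SD, n = 3, exact permutation p = 0.1 each).

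The Ier5 relative Ier5l was an ID8 gene, at 45.6 CPM in ID8 control and 0.264 CPM in PMJ2R control. With rebastinib Ier5l stood at 60.7 and 0.898 CPM. Its log2 fold change was 0.42 (SE 0.0768, adjusted p = 1.73e-04 by edgeR) in ID8, or -0.02 with library totals, and 1.81 (SE 0.374) in PMJ2R. The PMJ2R value rests on 7, 7 and 9 counts in control and 17, 11 and 15 with rebastinib. The Ier5l responses differed by 1.34 (SE 0.331). With so few counts in PMJ2R control, the PMJ2R value and this difference are descriptions, given without a p.

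Srf encodes the factor that binds CArG boxes and is itself an immediate-early gene. Its counts in PMJ2R were 1669, 2017 and 2312 in control and 1846, 1861 and 1689 with rebastinib. The raw counts overlap, and the CPM do not: 60.8, 63.9 and 81.0 in control and 117, 112 and 107 with rebastinib. The log2 fold change in PMJ2R was 0.77 (SE 0.0832, adjusted p = 1.11e-06 by edgeR), and it lay between 0.22 and 1.07 over the alternatives run, with the call kept in each. In ID8, Srf had 1584, 1399 and 1643 counts in control and 1332, 948 and 1417 with rebastinib, or 57.6 ± 4.14 and 64.2 ± 8.65 CPM (SD, n = 3). Its ID8 value of 0.16 (SE 0.0944, adjusted p = 0.128) did not pass the threshold. That value was 0.26 (adjusted p = 0.0360) without ID8 rebastinib replicate 2, -0.27 (adjusted p = 0.0154) with library totals and 0.48 (adjusted p = 2.50e-05) after removal of length and GC trends. The difference of response for Srf was 0.55 (SE 0.137, adjusted p = 0.00167).

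In the test of the difference of response, which includes all 8 genes, 6 were called by edgeR, each of them higher in PMJ2R than in ID8. Over 16566 genes 52.4% were called, 21.8% higher and 30.6% lower. The median over the 8 genes was 3.13 beside -0.10 over all genes. The genes called were Egr1, Egr2, Egr3, Ier2, Ier3 and Srf, and Nr4a1 and Ier5 were not. Egr1 and Egr2 entered this test through 1 line only, so the count and the median over the 8 genes are descriptions. At a mean of 5 CPM, where Egr2 and Egr3 were not tested, 4 were called higher.

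The direction of small changes depends on scaling. With TMM, 47.7% of the calls in ID8 and 47.9% of those in PMJ2R were higher. With library totals these shares were 29.5% and 26.3%, and the median of all genes moved from -0.07 to -0.50 in ID8 and from -0.05 to -0.60 in PMJ2R on the log2 scale. With totals that leave out ribosomal and mitochondrial genes the medians were -0.38 and -0.44, nearer to those of full totals than to those of TMM. Relative to that median, Egr1 stood at -2.52 in ID8 under TMM, RLE and library totals alike, and Ier3 at 0.38, 0.39 and 0.38. These scalings shift all genes by nearly the same amount, so this sameness follows from the method and is no test. After removal of length and GC trends the medians were 0.19 and 0.14, and relative to them Egr1 stood at -2.34 and Ier3 at -0.07 in ID8. The falls of Egr1, Egr3, Nr4a1 and Ier2 in ID8 and the rises of Egr2, Ier2, Ier3 and Srf in PMJ2R kept their sign under each scaling run.

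**Figure D3:**
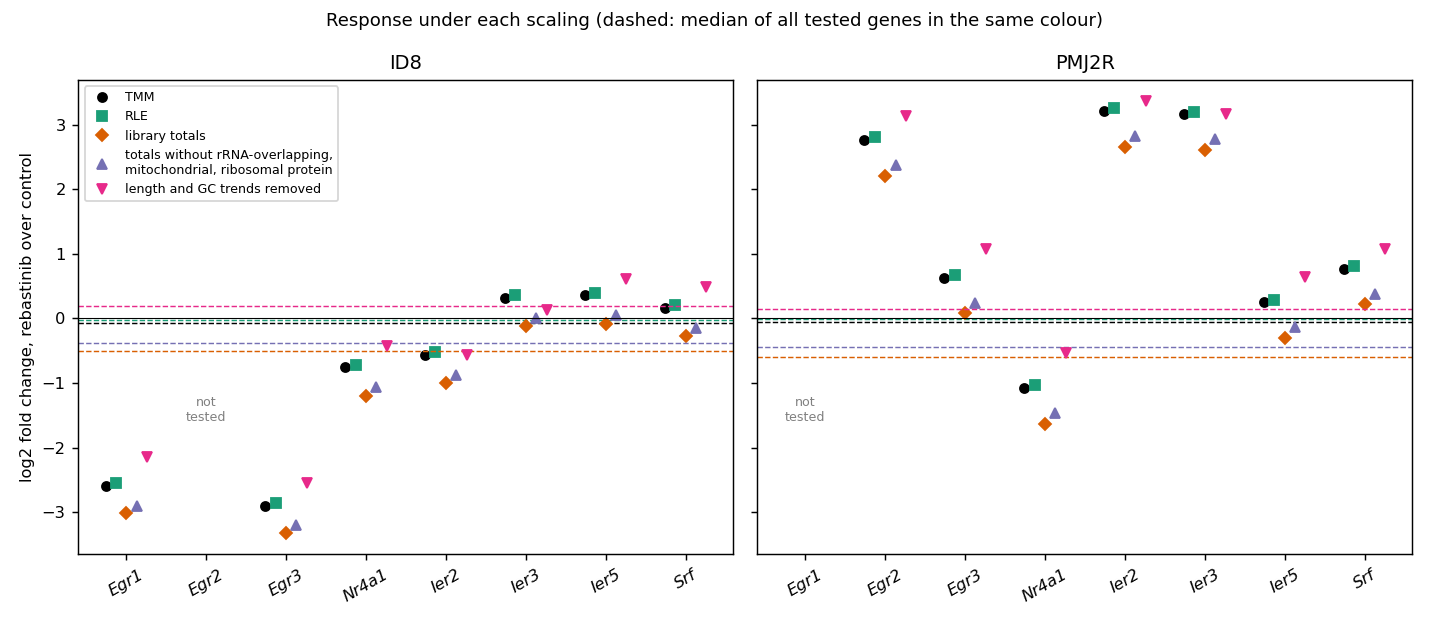
The log2 fold change of rebastinib over control is plotted for each gene under 5 ways of scaling, in ID8 (left) and PMJ2R (right), with the median of all tested genes as a dashed line of the same colour. Ier3, Ier5 and Srf in ID8 and Ier5 in PMJ2R cross 0, while Egr1, Egr3, Egr2 in PMJ2R, Ier2 and Ier3 in PMJ2R stay on their side.

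Between untreated lines, 5 of 7 tested genes were at least 2-fold lower in PMJ2R (Egr1, Egr3, Nr4a1, Ier2 and Ier3), and Ier5 and Srf were not called. By the same rule 43.7% of 15924 genes were called, 25.6% lower and 18.1% higher. The log2 differences, PMJ2R over ID8, were -9.01 for Egr1 (SE 0.151), -5.64 for Ier3 (SE 0.111, adjusted p = 1.35e-18 by edgeR) and -2.32 for Nr4a1 (SE 0.143, adjusted p = 7.47e-12). Egr1 passed the filter through its ID8 counts, so its value and its call are descriptions, given without a p. The Egr1 difference was -9.60 without PMJ2R control replicate 2, which held 7 of that group's 12 counts. This shift exceeds the SE of 0.151, so that SE understates the uncertainty of a value resting on so few counts. The differences were -1.86 for Egr3 (SE 0.276, adjusted p = 3.73e-06) and -1.79 for Ier2 (SE 0.0823, adjusted p = 5.70e-14). Ier5 was 0.83 higher (SE 0.0630, adjusted p = 2.24e-10), which is under 2-fold. Srf did not pass the threshold, at 0.14 (SE 0.0908, adjusted p = 0.162). Removing length and GC trends moved Srf to 1.33 (adjusted p = 2.01e-17), Ier2 to -1.04, Nr4a1 to -1.60, Egr1 to -8.19 and Ier5 to 1.24, which is past 2-fold and gains the call.

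Between rebastinib-treated lines, 3 of 7 tested genes were at least 2-fold lower in PMJ2R (Egr1, Nr4a1 and Ier3) and 2 were higher (Egr2 and Ier2). The background was 48.4% of 14496 genes called, 26.5% lower and 21.9% higher. Egr1 differed by -3.92 (SE 0.315), Ier3 by -2.67 (SE 0.0803, adjusted p = 3.26e-13 by edgeR) and Nr4a1 by -2.51 (SE 0.198, adjusted p = 2.03e-08). Egr2 was 3.83 higher in PMJ2R (SE 0.363). Egr1 passed the filter of this comparison through its ID8 counts and Egr2 through its PMJ2R counts. Their values are therefore descriptions, given without a p, and so are the counts of called genes that include them. Ier2 was 2.10 higher (SE 0.0903, adjusted p = 1.89e-11), so the line with more Ier2 was ID8 in control cells and PMJ2R in treated cells. Ier5 and Srf were 0.83 (SE 0.0727, adjusted p = 6.99e-08) and 0.87 (SE 0.0855, adjusted p = 2.61e-07) higher, both under 2-fold, and both passed 2-fold with length and GC trends removed (1.24 and 1.91). The same step moved Ier2 to 2.96, Egr1 to -3.08 and Nr4a1 to -1.73.

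**Figure D4:**
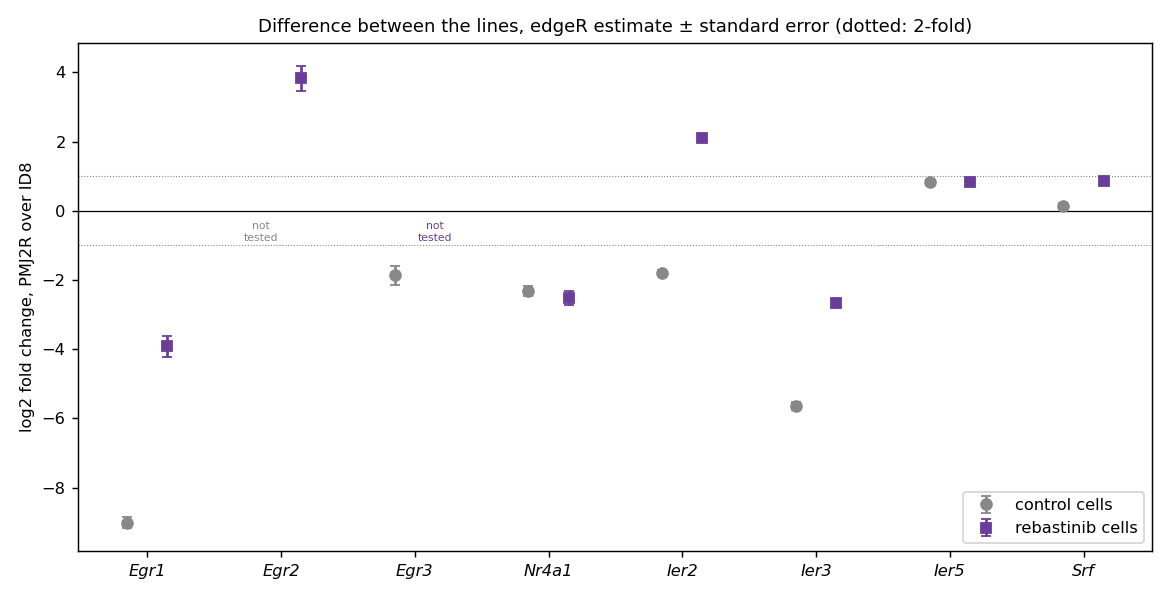
The log2 fold change of PMJ2R over ID8 is plotted for control cells (circles) and rebastinib cells (squares), with standard errors and dotted lines at 2-fold. Ier2 lies at -1.79 in control cells and at 2.10 in treated cells, on opposite sides of 0. The bar of Egr1 in control cells is too narrow, since PMJ2R control held 12 counts of it.

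Levels can be set against each other between genes only per length, as CPM per kilobase of exon. In ID8 control cells the order was Ier3 at 172, Ier2 at 39.0, Srf at 19.9, Egr1 at 15.1, Ier5 at 11, Nr4a1 at 3.20, Egr3 at 0.335 and Egr2 at 0.0989 CPM per kilobase, and no neighbours overlapped over the 3 libraries. Ier3 stood at or above 99.0% of the 16566 genes tested in the fit over all 12 libraries, by their levels in ID8 control. In ID8 rebastinib cells Ier3 led at 213 CPM per kilobase, Ier2 (26.4) and Srf (22.2) overlapped, and Ier5 stood at 14.1. Egr1 (2.52) then overlapped Nr4a1 (1.88), and Egr2 (0.0570) overlapped Egr3 (0.0459).

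PMJ2R control cells had another order. Srf (23.7 CPM per kilobase) and Ier5 (21.1) led and overlapped, followed by Ier2 at 12.2, Ier3 at 3.74 and Nr4a1 at 0.693. Egr2 (0.122) and Egr3 (0.0979) overlapped, and Egr1 was last at 0.0298 CPM per kilobase. With rebastinib Ier2 led at 108, followed by Srf at 38.8, Ier3 at 32, Ier5 at 24.0, Egr2 at 0.793 and Nr4a1 at 0.314 CPM per kilobase. Egr1 (0.159) and Egr3 (0.147) overlapped at the end.

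The other genes of the pathway were read as lists, against the shares over all tested genes: 38.4% higher and 42.0% lower in ID8, 40.1% and 43.6% in PMJ2R. With library totals the calls over all genes were 3540 higher and 8471 lower in ID8 and 3103 and 8676 in PMJ2R. Of 28 further immediate-early genes, 26 were tested in ID8, where 15 were lower and 8 higher (median -0.33, beside -0.07 over all genes). With library totals 18 were lower and 4 higher, where calls over all genes also moved to lower. The 4 with the smallest p in ID8 were Btg2, an antiproliferative gene (-2.76), the AP-1 genes Jun (-2.37) and Jund (-1.99), and the prostaglandin synthase Ptgs2 (-1.95). In PMJ2R 23 were tested, with 13 higher and 9 lower (median 0.63, beside -0.05), and those with the smallest p were the AP-1 gene Junb (2.32), the Krüppel-like factor Klf6 (1.99), the kinase Plk3 (2.50) and Jund (-1.45). For the difference of response, 16 of 27 were higher in PMJ2R and 4 lower (median 0.99, beside -0.10), where 21.8% of all genes were higher and 30.6% lower. Some of these genes passed that filter through 1 line only. Ccn1 and Ccn2 had no count in PMJ2R, and Dusp2 had 1 count in each ID8 group. This count and median are therefore descriptions. Jun, Junb, Jund and Plk3 share exon bases with a gene on the other strand (Junos, Prdx2, Gm11175 and Tctex1d4), so their reads cannot be told apart from its reads.

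Of the 6 genes whose proteins work with SRF, 5 were tested, with 3 lower and 2 higher in ID8 (beside 42.0% and 38.4% of all genes) and 4 lower and 1 higher in PMJ2R (beside 43.6% and 40.1%). The ternary complex factors Elk1 and Elk3 and the actin-sensing coactivator Mrtfb fell in ID8 (-1.37, -0.94 and -1.41), while Elk4 (0.59) and Mrtfa (0.25) were called higher. In PMJ2R, Elk3 (-1.90), Mrtfb (-1.45), Elk1 (-0.81) and Mrtfa (-0.71) fell and Elk4 (0.45) was called higher. The value of Mrtfa in PMJ2R was -0.05 (adjusted p = 0.384) with length and GC trends removed, and that of Elk4 in ID8 was 0.16 (adjusted p = 0.0807) with library totals. With library totals the count of lower genes stayed at 3 in ID8 and 4 in PMJ2R while the higher calls were lost, and without ID8 control replicate 2 the higher count in ID8 was 1. The list medians were -0.94 in ID8 and -0.81 in PMJ2R, beside -0.07 and -0.05 over all genes. Mrtfa in ID8 and Elk4 in PMJ2R fall outside the rule for named genes and were named after their values were seen.

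Cytoskeletal genes that SRF is known to control moved less evenly in ID8, where 6 of 14 tested were higher and 4 lower (median 0.07, beside -0.07 over all genes, of which 38.4% were higher and 42.0% lower). Zyxin (Zyx, -1.59) fell there and cofilin (Cfl1, 1.46), calponin 2 (Cnn2, 1.04) and transgelin 2 (Tagln2, 0.90) rose. In PMJ2R 9 of 12 were higher and 1 lower (median 0.71, beside -0.05 over all genes, of which 40.1% were higher and 43.6% lower), led by gamma-actin (Actg1, 1.95), Cfl1 (1.16), filamin A (Flna, 0.98) and beta-actin (Actb, 0.79). With library totals the counts were 5 higher and 8 lower in ID8, and 7 higher and 2 lower in PMJ2R. In the ERK cascade, 6 of 14 genes were higher and 7 lower in ID8 (median -0.12), and 7 higher and 4 lower in PMJ2R (median 0.08). Of all genes 80.4% were called in ID8 and 83.7% in PMJ2R, so the calls in this list lie near the background. With library totals the counts were 4 and 8 in ID8 and 2 and 11 in PMJ2R, beside the same move of all genes to lower. Hras (1.15) rose in ID8 and Braf (-1.09) and the kinase Rps6ka3 (-0.99) fell. In PMJ2R, the downstream kinases Mknk2 (-1.64) and Rps6ka1 (-1.0) fell. Exons of Elk1, Elk3, Elk4, Mrtfa, Mrtfb, Zyx, Cfl1, Actg1, Braf and Rps6ka1 share 10 to 468 bases with another gene, most of them on the other strand, so part of their reads is uncertain.

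**Figure D5:**
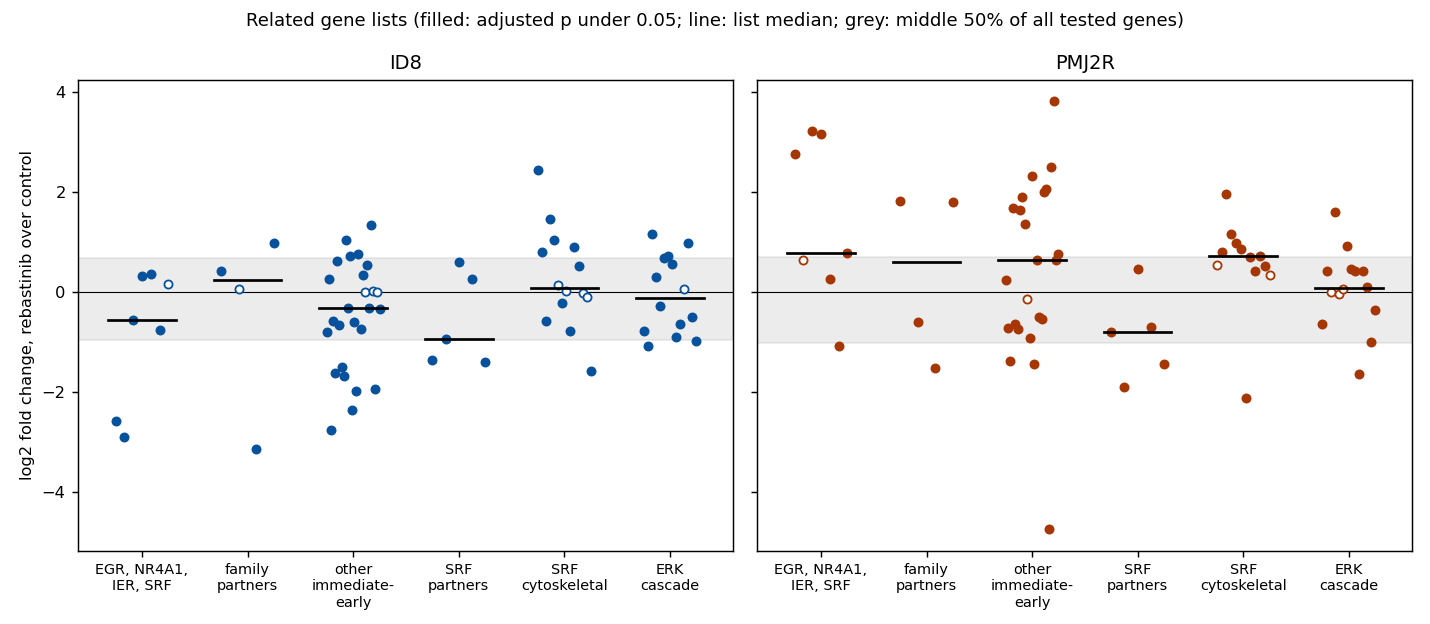
Each point is the log2 fold change of 1 tested gene in ID8 (left) or PMJ2R (right), filled where the adjusted p is under 0.05, with a line at the list median and a grey band for the middle 50% of all tested genes. The median of the 8-gene group is -0.56 in ID8 and 0.77 in PMJ2R.

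For each of the 8 genes, up to 2 genes most alike over the 12 libraries are given by Pearson's r of log2 CPM, among 9758 genes at 5 CPM or more. The libraries form 4 groups, so these values describe mostly the group means. Egr1 was most like Cemip (r = 0.992) and Tubb2b (0.991), Egr2 most like Fubp1 (0.980) and Gtf2e2 (0.975), and Egr3 was like Amhr2 (0.932). Nr4a1 was most like Zfpm1 (0.995) and Tspyl2 (0.995). Ier2 was most like Herpud1 (0.984) and Kdm5b (0.979), Ier3 most like Mid1ip1 (0.996) and Pkig (0.992), Ier5 most like Macrod1 (0.997) and H2afy (0.996), and Srf most like Isyna1 (0.973) and Tmem202 (0.968).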

How the data were processed

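Messenger RNA was measured in 12 libraries, 3 per group, with groups and replicate numbers taken from the sample titles. The table deposited by the authors holds raw counts for 55421 Ensembl identifiers. STAR 2.6.1c, featureCounts, FastQC, DESeq2 and GRCm38 are named in the submitters' processing notes, and the annotation and strand setting of the counting were not given in the sources used here. GENCODE vM21 gave symbols, and 181 identifiers (0.00261% of counts) had none. The 8 genes and the related lists were chosen with earlier results of these data known. Chemotherapy arms named in the design text are not analysed here.

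Each comparison was fitted over all genes with edgeR 4.0.16 in R 4.3.3 (TMM, default expression filter, robust quasi-likelihood test, Benjamini-Hochberg at 0.05, and at least 2-fold between lines). The SE is the log2 fold change divided by the square root of F. Difference of response is an interaction contrast over 12 libraries, while within-line values use that line's 6. No label states that replicates were separate cultures. The p-values therefore measure only how far these libraries spread, possibly for technical reasons. Named genes are the 8 genes, their tested relatives, up to 4 genes per list with the smallest p, and the 2 genes most alike in pattern, and some genes that meet this rule are not reported here. Alternatives were RLE, library totals, totals without ribosomal and mitochondrial genes, other filters, DESeq2 1.42.0, limma-voom (limma 3.58.1), a replicate block, removal of length and GC trends (mgcv 1.9.3) and leaving out each library. The fits were tested on simulated data.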

Additional observations from a re-analysis of the deposited data

Results flagged for a closer look

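Among the 8 genes and their 4 tested partners and relatives, 10 were called for a response to rebastinib that differed between the lines. The test was the interaction test of edgeR over all 12 libraries, in which 52.4% of 16566 genes were called. As PMJ2R minus ID8 on the log2 scale, the difference was 4.92 for Egr1, 3.49 for Egr2, 3.47 for Egr3, 3.72 for Ier2, 2.79 for Ier3 and 0.55 for Srf. Among partners and relatives it was 1.57 for Nab2, 1.34 for Ier5l, 0.76 for Nr4a2 and -0.72 for Nab1. For Egr1, Egr3 and Nab2 the ID8 side fell steeply, for Ier2 the lines moved in opposite directions, and for Egr2 and Ier3 the PMJ2R rise made up most of the difference. The PMJ2R side of Egr1 and the ID8 side of Egr2 rest on 16 counts or fewer per library, and each of these genes passed the filter through the other line, so their differences are descriptions. The differences of Egr3 and Ier5l are descriptions too, since each of these genes had a group with few counts. The calls and directions were kept under each alternative that tested the gene, and Egr2 and Egr3 were not tested at 5 CPM.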

How the results depend on the processing

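The 6 differences of response that were called among the 8 genes kept sign and call under every alternative that tested them. Egr1 and Egr2 entered this test through 1 line only, so for them this is a description. At 5 CPM Egr2 and Egr3 were not tested, and the members called higher were 4. With library totals the genes called higher numbered 3540 in ID8 and 3103 in PMJ2R, and the members of the group called higher in ID8 numbered 0, as with totals without ribosomal and mitochondrial genes. Members lower in PMJ2R were 2 with either total and 0 at 5 CPM or with length and GC trends removed. Members with a lower difference of response were 1 with library totals and 0 to 1 over leaving out each library. Signs turned in ID8 with library totals for Ier3 (-0.12), Ier5 (-0.08), Srf (-0.27), Nab1 (-0.38) and Ier5l (-0.02), with totals without heavy genes for Srf (-0.15) and Nab1 (-0.25), and at 5 CPM for Nab1 (-0.04). In PMJ2R they turned for Ier5 (-0.31 and -0.14 with the 2 totals). Between control lines they turned for Nab1 (0.15 with length and GC trends removed, with or without the block) and for Nr4a2 (-0.07 without ID8 control replicate 3 and -0.18 without PMJ2R control replicate 3, in a range of -0.18 to 0.16 over leaving out each library). Genes called between control lines were 1578 higher and 2395 lower at 5 CPM, and 4684 higher with length and GC trends removed (4679 with the replicate block), with 2 members higher in each of the latter. Between treated lines they were 5281 higher without a filter, and 1725 higher and 2212 lower at 5 CPM with 1 member higher, and 4 members were higher with length and GC trends removed, with or without the block. The 5 CPM filter tests fewer genes, and for the other moves the cause was not tested.

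Same-numbered libraries did not deviate together (r from -0.41 to 0.09 between control and rebastinib), so the numbers were not taken as pairs. With the replicate block, calls were 5428 higher and 5990 lower in ID8 and 5630 and 6096 in PMJ2R, 3386 and 4730 for the difference of response, 2882 and 4076 between control lines and 3184 and 3825 between treated lines, and no call of the 8 genes changed. Depth limits Egr1 in PMJ2R and Egr2 in ID8, which did not pass the expression filter within the line, and Egr3 in PMJ2R.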
